A study of Mus musculus with 7 samples.

Results

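The 36 collagen genes described here encode the chains of the fibrillar, network, fibril-associated (FACIT), basement membrane and transmembrane collagens. They were listed by name, and each was read through the Affymetrix probe sets that the platform annotation assigns to that gene alone. All 36 had such a probe set, 69 in all, and the probe set with the highest mean over the 7 arrays stood for its gene. They are 36 of 42 collagen genes named on the array and of 18193 genes with a probe set of their own. The list holds 10 fibrillar, 6 network, 7 FACIT, 9 basement membrane and 4 transmembrane genes.

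The study profiled adult and newborn mouse bladder on 430 2.0 arrays, with total RNA amplified in 2 rounds. The adult group was 3 bladders of adult FVB/N males (Theiler stage 28) carrying the SMGA/EGFP transgene, in which the promoter of smooth muscle gamma-actin (Actg2) drives enhanced green fluorescent protein, and this tissue was kept in liquid nitrogen. The postnatal day 1 group was 3 bladders of FVB/N male pups with the same transgene (Theiler stage 27), kept in a freezer; age and storage therefore cannot be told apart here. The third group was 1 array of wild-type FVB/N newborns (postnatal day 1, Theiler stage 27), whole animals pooled from 4 males and 4 females. Its title names bladders, but its source and protocol name the whole animal, and the cartilage and skin genes given below were high on it. Genotype, sex, pooling and the tissue taken therefore differ together between the bladders and the whole newborn, and for adult bladder age differs too. The bladder samples were not pooled and were dissected as whole organs, with muscle, stroma, urothelium and vessels in 1 RNA. Nothing in the labels says more of how the replicates were obtained, so p-values measure the spread between these samples, and the small number of arrays limits the precision.

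Collagen chains wind around one another into a helix, and the chains of a type are often products of different genes. Fibrillar collagens form the tensile fibrils of connective tissue, FACIT collagens sit on the surface of those fibrils, network collagens form filaments and lattices, basement membrane collagens form or anchor the sheet beneath epithelia and around muscle cells, and transmembrane collagens span the plasma membrane. In the bladder wall, fibrils of types I and III lie between the muscle bundles and in the lamina propria and carry load as the organ fills.

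Most collagen genes were read at lower intensity in adult bladder than in postnatal day 1 bladder, and the difference passed the test for 8 of them. Values are deposited intensities, and differences are adult minus postnatal day 1 on the log2(intensity + 49) scale, which understates the change of dim probe sets. Of 36 genes, 30 were bright enough to test, meaning that 3 or more of the 6 bladder arrays read them above the median of that array. A gene above the median at 1 stage alone can enter so, and could then hardly be called lower at that stage. By limma, with Benjamini-Hochberg adjustment over all tested probe sets and a threshold of 0.05, 8 fell in adult bladder and 0 rose. Among all 11930 genes tested, 4.95% fell and 4.02% rose. At an unadjusted p under 0.05, 14 collagen genes were lower in adult bladder and 0 higher, and the share of all genes at that threshold was not computed. The difference was below 0 in 28 of the 36 collagen genes and in 52.5% of all genes. The median difference was -0.54 over all 36 genes and -0.56 over the 30 tested, against -0.03 over all genes and -0.01 over the genes tested. In 18 of the 36 genes every adult array was lower than every postnatal day 1 array, and in 1 every adult array was higher, while over all genes the shares were 14.1% and 12.3%. By group, the genes that fell were 2 of 8 tested fibrillar genes, 1 of 5 network genes, 2 of 5 FACIT genes, 2 of 8 basement membrane genes and 1 of 4 transmembrane genes.

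The size of that count rested on single arrays. Adult bladder 2 was the highest of the 3 adult arrays in 23 of 36 collagen genes and in 9 of 10 fibrillar genes, by a median of 0.52 and 0.77 on the log2 scale over the mean of the other adults. The share of all genes in which adult bladder 2 was the highest was not computed, so these counts cannot be called particular to the collagens. That array also had the strongest hybridization spike-ins, 2.33 times the lowest array's level against 1.00 and 1.11 in adult bladders 1 and 3 and 1.40, 1.15 and 1.67 in the postnatal day 1 bladders, and the highest bladder median intensity (312, where the others lay between 209 and 290). Without adult bladder 2, 16 genes were called, 15 lower and 1 higher (Col4a6). Without adult bladder 1, adult bladder 3 or postnatal day 1 bladder 1, the count was 3 lower, and without postnatal day 1 bladder 2 or 3 it was 5 lower. The calls over all genes moved too, from 591 lower and 479 higher of 11930 tested to 745 and 641 of 12446 without adult bladder 2. They were 295 and 141 without adult bladder 1 and 279 and 120 without adult bladder 3. Leaving out postnatal day 1 bladder 1, 2 or 3 gave 346 and 281, 324 and 239, and 416 and 326. These 5 fits tested 12275 to 12409 genes. Adult bladders 1 and 3 carried transcripts of male accessory glands: of 10 marker genes, 8 and 9 lay above the array's median there and 0 on adult bladder 2 and on each postnatal day 1 array. The mean log2 value of those markers was 9.56 and 9.42 in adult bladders 1 and 3, 6.39 in adult bladder 2 and 6.20 to 6.57 in the postnatal day 1 bladders. With both of these arrays left out, a lone adult array remained, assumed to vary like the postnatal day 1 arrays. The median difference of the collagen genes in that fit is given with the alternatives below.

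**Figure D1:**
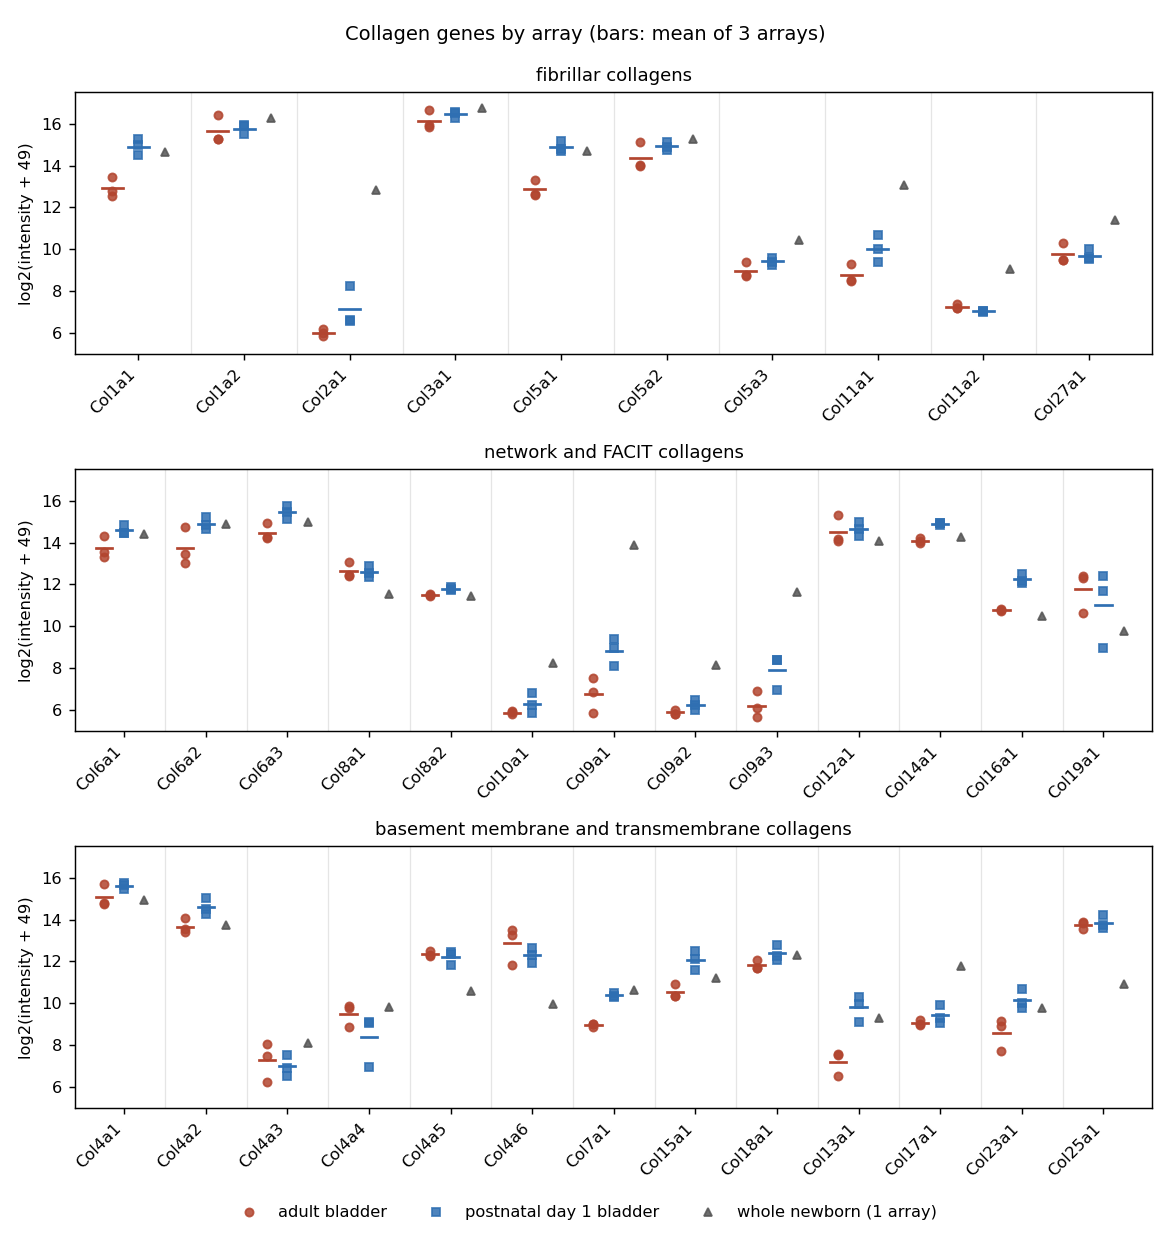
Intensity of each of the 36 collagen genes on each array, as log2(intensity + 49), in panels for the structural groups. Circles are the 3 adult bladders, squares the 3 postnatal day 1 bladders, triangles the whole newborn, and bars the means of 3 arrays. The adult circles of Col1a1, Col5a1, Col16a1, Col7a1 and Col13a1 lie below all postnatal day 1 squares, and the triangles of Col2a1, Col9a1, Col9a3 and Col11a1 lie far above both bladder groups.

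Among the fibrillar collagens the largest called decreases were in Col5a1 and Col1a1. Col5a1 encodes a chain of type V collagen, which starts fibrils and limits their width. Its intensity was 6124, 10180 and 6434 in adult bladders 1 to 3, against 36300, 28246 and 26596 in postnatal day 1 bladders 1 to 3. The groups were far apart, with the highest adult array below the lowest postnatal day 1 array. Col5a1 fell by 2.02 ± 0.26 (SE) in adult bladder (limma adjusted p = 0.00279), and postnatal day 1 bladder averaged 4.01 times adult bladder. Its other probe sets, 1434479_at and 1416741_at, fell by 1.57 and 2.59 (adjusted p = 0.0165 and 0.0439). Col1a1 encodes the main chain of type I collagen. It was read at 5933, 11337 and 6921 in adult bladders, against 38897, 31708 and 23319 in postnatal day 1 bladders, again without overlap. Col1a1 fell by 1.98 ± 0.30 (adjusted p = 0.00605), and its dimmer probe set 1423669_at differed by -1.54 ± 0.44 (adjusted p = 0.0633). Both calls held without any single bladder array, and were lost without adult bladders 1 and 3 together (adjusted p = 0.0613 for Col5a1 and 0.103 for Col1a1).

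The sequence before and just after the start of Col5a1 is shown because this gene had the lowest adjusted p of the list between the stages. The window runs from 250 bases before to 50 bases after the start (GRCm38.p6, chr2:27886175-27886474, plus strand, RefSeq), and capitals mark the GC box letters GGGCGG on either strand (CCGCCC on the other).
Col5a1: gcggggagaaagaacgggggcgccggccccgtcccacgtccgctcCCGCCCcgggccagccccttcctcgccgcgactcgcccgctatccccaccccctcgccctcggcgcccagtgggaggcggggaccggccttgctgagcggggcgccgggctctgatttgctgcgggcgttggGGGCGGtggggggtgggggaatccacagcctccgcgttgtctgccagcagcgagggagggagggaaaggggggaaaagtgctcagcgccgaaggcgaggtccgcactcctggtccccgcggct
It holds 2 such matches and no CCAAT or TATAAA on either strand. Windows were at hand for 29 of the 36 genes, 32 windows in all. GGGCGG stood in 20 of the 32 (62.5%) and in 35.7% of all 32851 windows of this length, CCAAT in 12 (37.5%) and in 37.4% of all, and TATAAA in 5 (15.6%) and in 13.6% of all. A match is a string of letters in the window and says nothing of binding.

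The probe sets of Col1a2, Col3a1 and Col5a2, partners of those chains in type I, III and V fibrils, did not read alike. Col1a2, the second chain of type I collagen, was read by its brightest probe set 1450857_a_at at 39004, 86925 and 39933 in adult bladders, against 60003, 46300 and 61706 in postnatal day 1 bladders. Adult bladder 2 was the highest of the 6 and the other adults the lowest, and the difference was -0.11 ± 0.30 (adjusted p = 0.863). The second probe set, 1423110_at, gave 25175, 24552 and 25196 in adult bladders, against 61713, 50548 and 48975 in postnatal day 1 bladders. There the adult arrays lay close together and below all postnatal day 1 arrays, and the difference was -1.10 ± 0.17 (adjusted p = 0.00702). The third, 1446326_at, was dim and its groups overlapped, with a mean of 937 ± 190 in adult bladder and 1042 ± 541 in postnatal day 1 bladder (SD, n = 3 each).

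Col3a1 encodes type III collagen, which is plentiful in distensible organs. Its brightest probe set, 1427883_a_at, read 62657, 102145 and 58683 in adult bladders, against 95910, 79420 and 93449 in postnatal day 1 bladders, and the groups overlapped through adult bladder 2 (difference -0.31 ± 0.22, adjusted p = 0.449). These values stood at 71.2% to 100% of the highest value on the same bladder array, near the top of the measured range. Col3a1 by 1427884_at read 13312, 12347 and 10495 in adult bladders, against 39644, 45047 and 38836 in postnatal day 1 bladders. No adult value on that probe set came near the postnatal day 1 values, and it fell by 1.77 ± 0.19 (adjusted p = 0.00154). Col5a2, the partner of Col5a1, repeated the split. Its brightest probe set 1422437_at read 16435, 35074 and 15952 in adult bladders, against 35030, 27511 and 29986 in postnatal day 1 bladders, with adult bladder 2 the highest of the 6 (difference -0.55 ± 0.30, adjusted p = 0.316). Probe set 1450625_at read 4803, 4783 and 4456 in adult bladders, against 18895, 15719 and 13694 in postnatal day 1 bladders. It fell by 1.76 ± 0.22 (adjusted p = 0.00276), with no overlap. By its brightest probe set, Col3a1, Col5a2 and Col1a2 are therefore counted as not called, although another probe set of each fell. Of the highest value on the same bladder array, Col5a2 by 1422437_at stood at 21.3% to 36.5% and Col1a2 by 1450857_a_at at 51.9% to 64.4%. Col1a2 by 1423110_at, which fell, stood at 17.1% to 64.3%. Whether the brightest probe sets differ in range, in position along the transcript or in the isoforms they match was not tested.

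**Figure D2:**
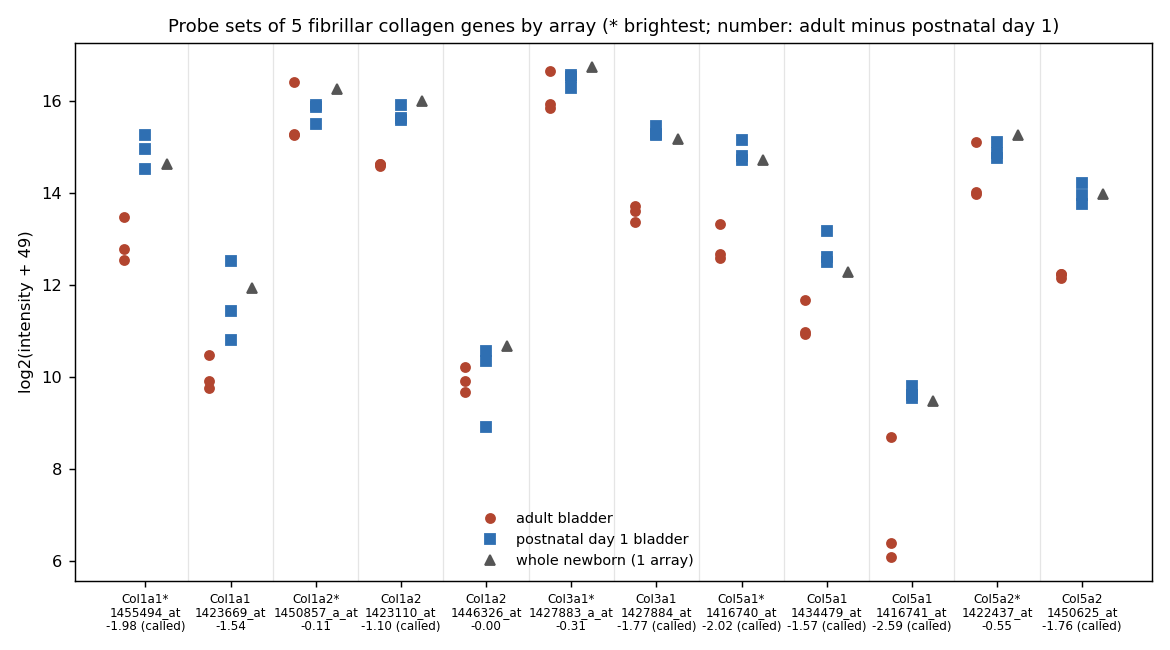
Intensity by array, as log2(intensity + 49), of the probe sets of 5 fibrillar genes, with adult circles, postnatal day 1 squares and a whole-newborn triangle. A star marks the brightest probe set of a gene and the number is the difference, adult minus postnatal day 1. The brightest probe sets of Col1a2, Col3a1 and Col5a2 have adult bladder 2 at or near the top, while 1423110_at, 1427884_at and 1450625_at of the same genes have all 3 adult circles together below the squares.

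Of 18 collagen genes with several tested probe sets, 13 had all of them on the same side of 0 and 5 did not (Col12a1, Col14a1, Col27a1, Col4a5 and Col8a1). Over collagen probe sets, 13 of 51 tested fell and 0 rose, while 1829 of all 23304 tested probe sets were called in either direction. By the looser rule of at least 1 probe set that fell, 11 collagen genes counted. The count over all genes under that rule was not made. The remaining fibrillar genes passed no test between the stages. Col11a1, a type XI chain best known from cartilage, read 309, 585 and 329 in adult bladders, against 1585, 634 and 1003 in postnatal day 1 bladders. All adult values lay below those of postnatal day 1, narrowly for adult bladder 2, and the difference was -1.26 ± 0.42 (adjusted p = 0.103). Col5a3 and Col27a1 differed by -0.46 (adjusted p = 0.462) and 0.06 (adjusted p = 0.946). Col2a1, the cartilage fibril chain, and Col11a2, its other type XI chain, lay below the median of every bladder array and were not tested between stages. Col11a2 was the gene whose adult values all exceeded those of postnatal day 1 (119, 97.8 and 100 in adult bladders, against 84.3, 84.0 and 80.3 in postnatal day 1 bladders), at a level too dim to test.

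In the network group, the chains of type VI collagen, which forms beaded filaments around cells, were lower in adult bladder, and 1 of them passed the test. Col6a3 read 19397, 30898 and 18908 in adult bladders, against 55071, 35283 and 44494 in postnatal day 1 bladders, without overlap, and fell by 0.98 ± 0.25 (adjusted p = 0.0475). That value lay at the threshold, and 9 of 19 alternatives ended the call, among them leaving out any array but adult bladder 2 (adjusted p from 0.067 without postnatal day 1 bladder 2 to 0.177 without adult bladder 3). Col6a1 read 9966, 20509 and 11808 in adult bladders, against 28722, 22716 and 22410 in postnatal day 1 bladders. Col6a2 read 8389, 27243 and 11248 in adult bladders, against 38276, 29276 and 25294 in postnatal day 1 bladders. In Col6a1 the groups stayed apart, and in Col6a2 adult bladder 2 reached into the postnatal day 1 range. Their differences were -0.86 ± 0.28 (adjusted p = 0.0977) and -1.15 ± 0.39 (adjusted p = 0.112). Of the short-chain collagens, known from vessel walls and the cornea, Col8a2 differed by -0.30 (adjusted p = 0.489) and Col8a1 by 0.03 (adjusted p = 0.958). Col10a1, the marker collagen of hypertrophic cartilage, was below the median of every array and not tested.

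The FACIT genes Col16a1 and Col14a1 fell in adult bladder. Col16a1, a minor fibril-associated chain, read 1760, 1684 and 1725 in adult bladders, against 5830, 4499 and 4315 in postnatal day 1 bladders. The adult values were nearly equal and the postnatal day 1 values were all more than 2 times as high. It fell by 1.46 ± 0.25 (adjusted p = 0.0105), a call lost without adult bladder 1 (0.0504) or adult bladder 3 (0.0585). Col14a1, which binds type I fibrils and regulates their growth, read 17443, 18981 and 15964 in adult bladders, against 31304, 28906 and 30791 in postnatal day 1 bladders. The groups were tight and separate, and Col14a1 fell by 0.80 ± 0.18 (adjusted p = 0.0284). The call was lost in 10 of 19 alternatives, including median centring (0.0553) and leaving out any array but adult bladder 2 (0.0736 to 0.143). Its other tested probe sets differed by -0.91 (adjusted p = 0.12) and 0.71 (adjusted p = 0.675).

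Col12a1, another type I-binding chain, read 18436, 40481 and 17379 in adult bladders, against 32443, 25503 and 20495 in postnatal day 1 bladders. Adult bladder 2 was the highest and the other adults the lowest (difference -0.13 ± 0.33, adjusted p = 0.859). Col19a1, found in basement membrane zones, read 5370, 1525 and 4949 in adult bladders, against 448, 5370 and 3224 in postnatal day 1 bladders, so that the spread within each stage exceeded the difference of 0.76 ± 0.82 (adjusted p = 0.633). Col9a1, a type IX chain that coats cartilage fibrils, read 66.9, 136 and 10.2 in adult bladders, against 452, 226 and 631 in postnatal day 1 bladders. The stages did not overlap, the adult arrays were all below their median, and the difference of -2.07 ± 0.58 did not pass the test (adjusted p = 0.0597). Col9a3 and Col9a2 were too dim to test between stages, with differences of -1.70 and -0.36.

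Col16a1 differed both between the stages and from the whole newborn (below), and its start window is shown for that reason (GRCm38.p6, chr4:130047590-130047889, plus strand, RefSeq). Capitals mark GGGCGG and CCAAT on either strand.
Col16a1: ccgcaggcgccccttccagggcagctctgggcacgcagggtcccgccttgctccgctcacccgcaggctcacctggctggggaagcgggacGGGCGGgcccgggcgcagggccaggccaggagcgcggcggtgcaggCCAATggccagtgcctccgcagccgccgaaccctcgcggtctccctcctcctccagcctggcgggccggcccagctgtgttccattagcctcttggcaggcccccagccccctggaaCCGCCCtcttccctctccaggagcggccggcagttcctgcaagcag
The window holds 2 matches to GGGCGG and 1 to CCAAT.

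In the basement membrane group the genes that fell were Col15a1 and Col7a1, and none of the 5 tested type IV chains did. Col15a1 encodes type XV collagen, which lies at the outer face of muscle and vessel basement membranes. It read 1261, 1902 and 1257 in adult bladders, against 5732, 3019 and 4406 in postnatal day 1 bladders, without overlap, and fell by 1.52 ± 0.32 (adjusted p = 0.0234). Col7a1, the chain of the anchoring fibrils that tie epithelial basement membranes to the stroma, read 420, 468 and 469 in adult bladders, against 1267, 1390 and 1202 in postnatal day 1 bladders. Both groups were tight, and Col7a1 fell by 1.41 ± 0.29 (adjusted p = 0.0198). Leaving out adult bladder 1, adult bladder 3 or postnatal day 1 bladder 1 ended either call, with adjusted p of 0.0964, 0.109 and 0.0832 for Col15a1 and of 0.0838, 0.0875 and 0.0594 for Col7a1. The call was also lost for Col15a1 without postnatal day 1 bladder 3 (0.0613) and for Col7a1 without postnatal day 1 bladder 2 (0.0717).

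Col4a1 and Col4a2 encode the common type IV chains of most basement membranes and start from opposite strands of a shared region. Col4a1 read 28219, 53577 and 27541 in adult bladders, against 55562, 45030 and 50852 in postnatal day 1 bladders. Col4a2 read 11904, 16908 and 10743 in adult bladders, against 33760, 23418 and 19294 in postnatal day 1 bladders. The stages overlapped in Col4a1 through adult bladder 2 and did not overlap in Col4a2. The differences were -0.54 ± 0.26 for Col4a1 (adjusted p = 0.256) and -0.94 ± 0.27 for Col4a2 (adjusted p = 0.0668). The Col4a2 window (GRCm38.p6, chr8:11312555-11312854, plus strand, RefSeq) is printed with the 78 bases it shares with the window of Col4a1 (chr8:11312777-11313076, minus strand) in capitals, since this shared stretch is what joins the pair.
Col4a2: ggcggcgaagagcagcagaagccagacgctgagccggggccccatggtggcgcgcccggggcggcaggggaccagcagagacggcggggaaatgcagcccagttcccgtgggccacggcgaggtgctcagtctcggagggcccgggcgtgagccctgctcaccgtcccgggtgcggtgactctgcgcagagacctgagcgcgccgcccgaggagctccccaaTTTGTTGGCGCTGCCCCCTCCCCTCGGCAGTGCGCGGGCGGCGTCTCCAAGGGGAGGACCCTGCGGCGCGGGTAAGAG
The shared bases are chr8:11312777-11312854.

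Col4a5 and Col4a6, a pair of neighbours on chromosome X whose chains occur together in smooth muscle basement membrane, averaged somewhat higher in adult bladder but passed no test. Col4a6 read 11545, 3624 and 9844 in adult bladders, against 6370, 3839 and 5025 in postnatal day 1 bladders. Adult bladders 1 and 3 were above all postnatal day 1 arrays and adult bladder 2 below them, and the difference was 0.58 ± 0.43 (adjusted p = 0.46). Col4a5 read 5033, 4887 and 5713 in adult bladders, against 5198, 3564 and 5560 in postnatal day 1 bladders, which overlapped (difference 0.15 ± 0.26, adjusted p = 0.785). Col18a1, the source of endostatin, differed by -0.56 (adjusted p = 0.251) and Col4a4, a chain best known from the kidney glomerulus, by 1.12 (adjusted p = 0.304). Col4a3, its partner there, was below the median of every array. Of the 36 genes, 6 pairs were direct neighbours in the RefSeq gene table: besides these 2 pairs they were Col3a1 with Col5a2, Col6a1 with Col6a2, Col4a3 with Col4a4, and Col9a1 with Col19a1.

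Of the transmembrane collagens, Col13a1 fell, while Col25a1 passed no test. Col13a1, an adhesion protein of muscle and of the neuromuscular junction, read 141, 44.6 and 137 in adult bladders, against 1231, 512 and 964 in postnatal day 1 bladders. The adult arrays were below their median in all 3 cases and the postnatal day 1 arrays above it, and Col13a1 fell by 2.59 ± 0.47 (adjusted p = 0.0126), a call lost without postnatal day 1 bladder 1 (0.0616). Col13a1 thus entered the test through the postnatal day 1 arrays alone, and could hardly have been called higher in adult bladder. Col23a1 read 516, 430 and 163 in adult bladders, against 988, 820 and 1601 in postnatal day 1 bladders, without overlap (difference -1.57 ± 0.45, adjusted p = 0.0673). Col17a1, a component of hemidesmosomes in basal epithelial cells, read 466, 537 and 457 in adult bladders, against 932, 588 and 489 in postnatal day 1 bladders, and the groups overlapped (difference -0.38 ± 0.35, adjusted p = 0.566). Col25a1, first described from amyloid plaques and needed in mouse for motor innervation of muscle, read 15057, 11974 and 14524 in adult bladders, against 13748, 18788 and 12201 in postnatal day 1 bladders. The stages overlapped, with a difference of -0.09 ± 0.23 (adjusted p = 0.861). Its dimmer probe set 1421427_at read 324, 549 and 410 in adult bladders, against 689, 959 and 706 in postnatal day 1 bladders, without overlap, and its difference of -0.82 ± 0.34 did not pass (adjusted p = 0.183).

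**Figure D3:**
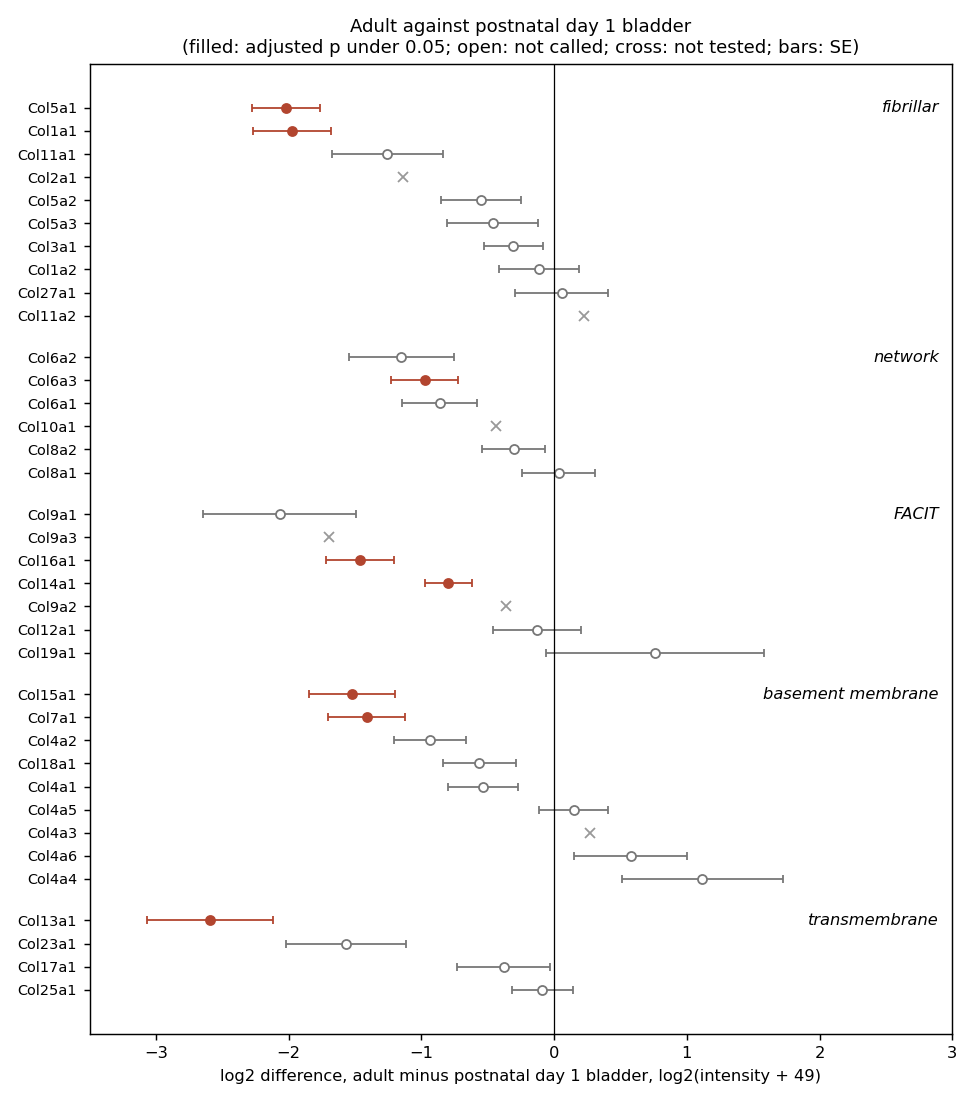
Difference in log2(intensity + 49), adult minus postnatal day 1 bladder, for each of the 36 collagen genes by structural group, with bars for the SE. Filled points passed the test, open points did not and crosses were not tested. The 8 filled points lie between -2.59 (Col13a1) and -0.80 (Col14a1), and 28 of 36 points lie below 0, as did 52.5% of all genes.

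Whole bladder RNA cannot separate fewer cells of a type from less RNA per cell. Of 8 fibroblast markers, 0 passed the test by limma (2 higher and 1 lower at an unadjusted p under 0.05), with a mean log2 value of 12.31 to 12.59 in adult bladders and 12.14 to 12.90 in postnatal day 1 bladders. Of 8 smooth muscle markers, 0 passed (0 at an unadjusted p under 0.05), with 14.29 to 14.80 in adult bladders and 14.23 to 14.73 in postnatal day 1 bladders. Of 7 skeletal muscle markers, 6 fell, with a median difference of -4.50 and a mean log2 value of 8.48 to 8.64 in adult bladders and 12.09 to 13.12 in postnatal day 1 bladders. On each adult array 2 of the 7 lay above the median, against 6 or 7 on each postnatal day 1 array. Those dim on every adult array could hardly have been called higher there. Of 5 skin markers, 2 were tested and Krt14, a basal keratin, fell. The mean log2 value of the 5 was 6.96 to 7.83 in adult bladders and 8.58 to 9.34 in postnatal day 1 bladders. Of 9 urothelial markers, Trp63, a factor of basal cells, rose by 1.00 (adjusted p = 0.0236) and 8 did not pass, among them the basal keratin Krt5 at -0.01 (adjusted p = 0.989), with a mean log2 value of 13.12 to 13.50 in adult bladders and 12.81 to 13.30 in postnatal day 1 bladders. Of 6 leukocyte markers, 4 were tested and 2 rose, the macrophage genes Lyz2 by 2.55 (adjusted p = 0.00203) and Csf1r by 1.52 (adjusted p = 0.0409), with a list median of 1.18. The part of striated muscle, skin, urothelium and leukocytes in the collagen differences was not tested. Of 6 tested endothelial and 4 tested neural markers, 0 passed by limma (0 higher and 1 lower, and 1 higher and 2 lower, at an unadjusted p under 0.05). The 3' to 5' ratio of Actb, a sign of RNA quality, was 4.83, 3.84 and 5.15 in adult bladders and 3.18, 3.70 and 1.85 in postnatal day 1 bladders. The same ratio of Gapdh ran the other way, at 15.3, 19.6 and 15.4 in adult bladders and 21.6, 30.9 and 19.1 in postnatal day 1 bladders. The part of RNA quality was not tested either.

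Of the genes that fold, process, cross-link or bind collagen, 5 passed the test between the stages, 2 higher and 3 lower in adult bladder. Among all 11930 genes tested, 4.02% rose and 4.95% fell, so the count is not read as particular to these genes. Of 16 folding and hydroxylation genes with a probe set, whose median difference was -0.56, 14 were tested and Ppib, a proline isomerase of the procollagen folding complex, was the 1 that fell (by 0.80 ± 0.20, adjusted p = 0.0459). Of 8 tested genes of secretion and propeptide processing, Pcolce2, an enhancer of procollagen processing, rose by 4.67 ± 0.51 (adjusted p = 0.00165), with 1308, 3863 and 1792 in adult bladders, against 7.95, 88.8 and 26.0 in postnatal day 1 bladders. Of 4 cross-linking enzymes, Lox fell by 2.80 ± 0.23 (adjusted p = 0.000804), with 5794, 6129 and 4323 in adult bladders, against 44120, 39007 and 30697 in postnatal day 1 bladders. In both genes the stages stood far apart on every array. Pcolce2 was below the median on every postnatal day 1 array. It entered the test through the adult arrays alone and could hardly have been called lower in adult bladder. Of 11 tested fibril-binding proteoglycans and organisers, Prelp, a leucine-rich proteoglycan of basement membranes, rose by 2.95 ± 0.40 (adjusted p = 0.00398) and Sparc, a collagen-binding protein, fell by 0.83 ± 0.19 (adjusted p = 0.0327). Of 7 tested collagen receptors, 0 passed by limma (1 higher and 1 lower at an unadjusted p under 0.05), and of 9 tested degradation genes, 0 passed (4 higher and 2 lower).

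Against the whole newborn, postnatal day 1 bladder was far lower in the collagens of cartilage fibrils. The comparison has 1 whole-newborn array, whose spread was taken from the bladder arrays, and 33 collagen genes were bright enough to test. A gene above the median on the newborn array alone was tested too, and could then hardly be called higher in bladder. Col2a1 entered so in both comparisons, and Col9a1 and Col9a3 in that with adult bladder. The filter all but fixed the direction of those calls. Postnatal day 1 bladder was lower in 5 (Col2a1, Col9a1, Col9a3, Col11a1 and Col17a1), where 6.39% of 13745 tested genes were lower, and higher in 3 (Col25a1, Col16a1 and Col4a5), where 3.19% were higher. Adult bladder was lower in 8 (the same 5 with Col1a1, Col5a1 and Col7a1), where 9.23% of 13504 tested genes were lower, and higher in 3 (Col25a1, Col4a6 and Col4a5), where 6.1% were higher. The median difference over all 36 genes was 0.13 in postnatal day 1 bladder and -0.76 in adult bladder, against -0.09 and -0.15 over all genes. These comparisons share the whole-newborn array. Median centring, which moved the median of all tested genes in these comparisons to 0.68 and 0.64, gave 3 lower and 9 higher for postnatal day 1 bladder and 5 lower and 4 higher for adult bladder. Over all genes it gave 570 lower and 1059 higher of 13745 for postnatal day 1 bladder, against 878 and 439 in the main fit. For adult bladder it gave 824 lower and 1689 higher of 13504, against 1247 and 824. Without adult bladder 2 the count for adult bladder was 15 lower and 3 higher, and without adult bladder 3 it was 6 lower and 1 higher. The calls over all genes moved too, to 1569 lower and 1318 higher of 13297 tested and to 849 and 380 of 13349. No called gene changed sign under the alternatives run.

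Col2a1 was 16.2, 24.1 and 10.1 in adult bladders and 261, 49.9 and 48.8 in postnatal day 1 bladders, against 7330 in the whole newborn. The difference was -5.68 ± 0.76 for postnatal day 1 bladder (adjusted p = 0.0029) and -6.81 ± 0.76 for adult bladder (adjusted p = 0.000948). All 6 bladder arrays lay below their median for Col2a1, so its level in bladder is only bounded by dim signal. Col9a1, at 15244 in the whole newborn, differed by -5.07 ± 0.75 in postnatal day 1 bladder (adjusted p = 0.00464) and -7.14 ± 0.75 in adult bladder (adjusted p = 0.000722). Col9a3 read 19.6, 2.06 and 71.8 in adult bladders and 78.2, 286 and 291 in postnatal day 1 bladders, against 3128 in the whole newborn, with differences of -3.70 in postnatal day 1 bladder (adjusted p = 0.0221) and -5.40 in adult bladder (adjusted p = 0.00293). Col11a1, at 8673 in the whole newborn, differed by -3.05 ± 0.58 in postnatal day 1 bladder (adjusted p = 0.0154) and -4.31 ± 0.58 in adult bladder (adjusted p = 0.00226). These chains make and coat the fibrils of cartilage. Of 12 cartilage and bone markers, 7 were lower in postnatal day 1 bladder and 7 in adult bladder, all 12 were above the median on the whole-newborn array and 2 or 3 on each bladder array, and their mean log2 value was 7.23 to 7.49 in adult bladders, 7.29 to 7.54 in postnatal day 1 bladders and 10.76 in the whole newborn. Cartilage, bone and skin markers above the median on no bladder array entered the test through the newborn array alone. The whole newborn contains the skeleton and the bladder does not, and the share of the collagen differences due to it was not tested. Under the 18 alternatives that used these probe sets or the mean of a gene's probe sets, Col2a1 and Col9a1 kept their calls in both comparisons, and Col11a1 and Col9a3 kept theirs in adult bladder. In postnatal day 1 bladder the call for Col9a3 was lost with an added constant of 17 (0.0698), with median centring (0.0503) and without adult bladders 1 and 3 (0.0632), and that for Col11a1 without adult bladders 1 and 3 (0.0516). For Col9a1, 1421381_a_at passed in neither comparison, at -1.80 in postnatal day 1 bladder (adjusted p = 0.0972) and -1.87 in adult bladder (adjusted p = 0.0723), or 24.4% and 24.0% of the whole-newborn value against 2.86% and 0.465% by the brightest. For Col11a1, 1449154_at differed by -2.24 in postnatal day 1 bladder (adjusted p = 0.185) and -4.60 in adult bladder (adjusted p = 0.0135). For Col9a3, 1460734_at was lower in both (-3.74 and -5.14, adjusted p = 0.0475 and 0.00977). Col9a2 and Col10a1 were too dim to test, and Col11a2 and Col27a1 passed in neither comparison (adjusted p from 0.0594 to 0.0761).

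Col17a1 read 3461 in the whole newborn and differed by -2.34 ± 0.49 in postnatal day 1 bladder (adjusted p = 0.0225) and -2.72 ± 0.49 in adult bladder (adjusted p = 0.00885). The call for postnatal day 1 bladder was lost without postnatal day 1 bladder 2 (0.0548) and with median centring (0.0731). Of the 5 skin markers, 4 were lower in postnatal day 1 bladder and 5 in adult bladder, with a mean log2 value of 14.79 in the whole newborn, and the part of skin in the Col17a1 difference was not tested. Col1a1 and Col5a1 read 25305 and 26705 in the whole newborn, inside or near the range of the postnatal day 1 bladders. They differed by 0.28 and 0.17 in postnatal day 1 bladder (adjusted p = 0.757 and 0.828), and by -1.70 and -1.85 in adult bladder (adjusted p = 0.0305 and 0.0118). Col7a1, at 1558 in the whole newborn, differed by -1.68 in adult bladder (adjusted p = 0.0329). With adult bladder 1 or adult bladder 3 left out the adult calls were lost for Col1a1 (0.0761 and 0.0843) and Col7a1 (0.0901 and 0.093), as they were for Col1a1 without postnatal day 1 bladder 2 (0.0515) and for Col7a1 without postnatal day 1 bladder 1 (0.0505). Median centring ended the adult calls for Col1a1 (0.129), Col5a1 (0.055) and Col7a1 (0.177). The dimmer probe sets of Col1a1 (-1.89, adjusted p = 0.0843) and Col5a1 (-1.09 and -2.42, adjusted p = 0.142 and 0.13) did not pass in adult bladder.

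Col25a1 had the lowest adjusted p among the collagen genes that were higher in bladder. At 1868 in the whole newborn, it was higher by 2.94 ± 0.33 in postnatal day 1 bladder (adjusted p = 0.00128) and by 2.85 ± 0.33 in adult bladder (adjusted p = 0.00115), and its mean was 798% of the whole-newborn value in postnatal day 1 bladder and 741% in adult bladder. Every bladder array was more than 6 times as high as the whole-newborn array, and both calls held under the 18 alternatives that used this probe set or the mean of the gene's probe sets. The dimmer probe set 1421427_at gave neither call: it differed by 1.91 in postnatal day 1 bladder (adjusted p = 0.0549) and by 1.09 in adult bladder (adjusted p = 0.216), at 458% and 250% of the whole-newborn value. The start window of Col25a1 is shown for its low adjusted p (GRCm38.p6, chr3:130180595-130180894, plus strand, RefSeq), with GGGCGG and CCAAT on either strand in capitals.
Col25a1: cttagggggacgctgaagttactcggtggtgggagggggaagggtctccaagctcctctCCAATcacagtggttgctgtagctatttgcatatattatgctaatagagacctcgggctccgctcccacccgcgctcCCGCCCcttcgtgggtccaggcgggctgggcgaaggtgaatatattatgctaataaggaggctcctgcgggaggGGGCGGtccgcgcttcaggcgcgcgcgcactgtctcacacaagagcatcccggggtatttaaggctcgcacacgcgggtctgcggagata
The window holds 2 matches to GGGCGG and 1 to CCAAT.

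Col4a5, at 1508 in the whole newborn, was higher by 1.61 ± 0.37 in postnatal day 1 bladder (adjusted p = 0.0319) and by 1.75 ± 0.37 in adult bladder (adjusted p = 0.0164). Col4a6, at 971 in the whole newborn, was higher by 2.88 ± 0.61 in adult bladder (adjusted p = 0.017), and the difference of 2.30 ± 0.61 in postnatal day 1 bladder missed the threshold (adjusted p = 0.0547). In both genes every bladder array exceeded the whole-newborn array. The postnatal day 1 call for Col4a5 was lost without adult bladder 1 (0.0655), adult bladder 3 (0.069), postnatal day 1 bladder 1 (0.0686) or postnatal day 1 bladder 3 (0.0541), and the adult calls for Col4a5 and Col4a6 without adult bladder 3 (0.0608 and 0.0505). Their dimmer probe sets passed in neither comparison, with adult differences of 1.56 for Col4a5 (1425475_at, adjusted p = 0.0666) and 2.26 for Col4a6 (1421006_at, adjusted p = 0.0852). Of the 8 smooth muscle markers, 6 were higher in postnatal day 1 bladder and 6 in adult bladder, with a mean log2 value of 14.29 to 14.80 in adult bladders, 14.23 to 14.73 in postnatal day 1 bladders and 11.37 in the whole newborn. Of 9 urothelial markers, 4 were higher in postnatal day 1 bladder and 6 in adult bladder. The part of either tissue in the Col25a1, Col4a5 and Col4a6 differences was not tested. Col16a1, at 1402 in the whole newborn, was higher by 1.75 ± 0.36 in postnatal day 1 bladder (adjusted p = 0.0205, lost at 0.0501 without adult bladder 3) and differed by 0.29 ± 0.36 in adult bladder (adjusted p = 0.667). By their brightest probe sets, Col3a1, Col1a2, Col5a2, Col6a1, Col6a2, Col6a3, Col4a1, Col4a2, Col12a1 and Col14a1 passed in neither comparison. Other probe sets of Col3a1 (1427884_at, -1.61, adjusted p = 0.00556), Col1a2 (1423110_at, -1.37, adjusted p = 0.0081) and Col5a2 (1450625_at, -1.76, adjusted p = 0.00692) were lower in adult bladder, as they were between the stages, and passed for none of the 3 in postnatal day 1 bladder (differences of 0.16, -0.28 and 0.00, adjusted p = 0.776, 0.558 and 0.998).

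Among genes acting on collagen, 2 of 7 tested receptors were higher in postnatal day 1 bladder than in the whole newborn and the same 2 in adult bladder: Itga1, the alpha chain of a collagen-binding integrin (2.11 and 2.44, adjusted p = 0.0116 and 0.00406), and Ddr2, a receptor tyrosine kinase for fibrillar collagen (1.85 and 2.02, adjusted p = 0.0294 and 0.0148). Of 11 tested degradation genes, 3 were lower in postnatal day 1 bladder and 2 in adult bladder, led by the collagenase Mmp13 (-5.47 and -5.68, adjusted p = 0.00128 and 0.000909). In adult bladder 2 others were higher, the metalloproteinase inhibitors Timp2 (1.23, adjusted p = 0.0166) and Timp3 (1.45, adjusted p = 0.0257), and in postnatal day 1 bladder 0 were (1 at an unadjusted p under 0.05). Pcolce2 was lower in postnatal day 1 bladder (-4.68, adjusted p = 0.00558) and Lox in adult bladder (-2.02, adjusted p = 0.00516). Among 13 fibril-binding genes, 2 were lower in postnatal day 1 bladder and 3 in adult bladder, led by Comp, a cartilage matrix protein (-4.63 in postnatal day 1 bladder, adjusted p = 0.00165), and Kera, a corneal proteoglycan (-5.57 in adult bladder, adjusted p = 0.00137). Mmp13, Comp and Kera were below the median on every bladder array. They entered the tests through the newborn array alone and could hardly have been called higher in bladder. Of 15 folding genes, 0 passed in either comparison by limma (0 and 2 lower at an unadjusted p under 0.05).

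**Figure D4:**
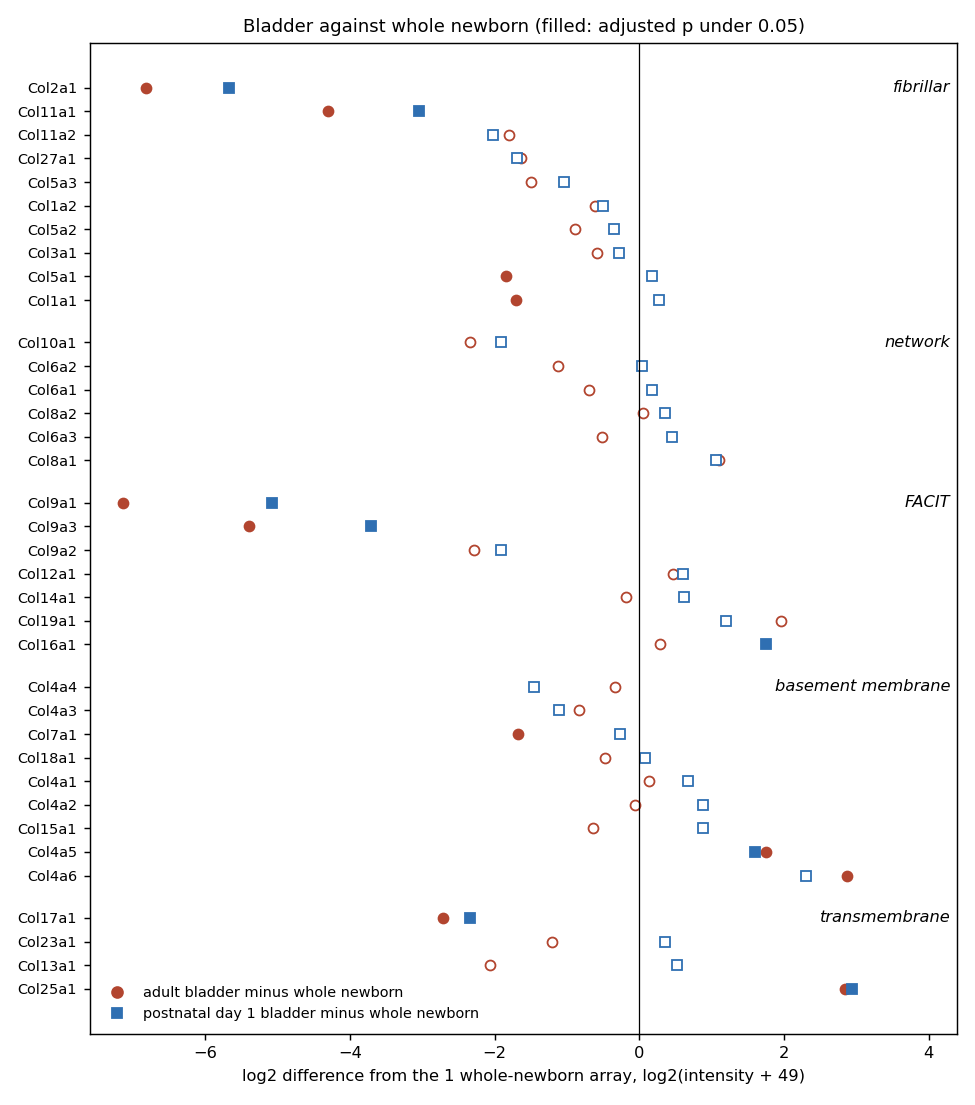
Difference in log2(intensity + 49) from the 1 whole-newborn array for each of the 36 collagen genes, with circles for adult bladder and squares for postnatal day 1 bladder, filled where the adjusted p was under 0.05. Col2a1 and Col9a1 lie furthest to the left for both, and Col25a1 lies near 2.9 to the right for both.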

How the data were processed

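Bladders and a whole-newborn pool were measured on 1-colour Affymetrix arrays. The values used are linear intensities as deposited by the authors, who made them with GCOS, per the submitters' processing notes. The summary method is not given in the sources used here, nor is the GCOS version, and there are no detection calls. Each array had a mean of 1500.01 once the top and bottom 2% of its values were set aside. Of 45101 probe sets, 64 controls were left out.

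Values were analysed as log2(intensity + 49), 49 being the 20th percentile of all values, without centring (array medians spanned 0.485 over 6 arrays and 0.906 over 7). Tests were two-sided, with limma 3.58.1 in R 4.3.3 (lmFit, eBayes with a trend, Benjamini-Hochberg over all tested probe sets) and were tested on simulated data. The stage fit held the 6 bladder arrays, with probe sets over the array median in 3 of 6. The newborn fit held 7 arrays in 3 groups, with 1 of the 4 arrays compared enough.

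Values in every array are given for collagen genes called in a comparison and for the 3 brightest of each structural group, the others by difference or count. Pathway genes were named by adjusted p. The members and lists were chosen with earlier results of these data known. Start windows and gene order came from RefSeq (GRCm38.p6). Alternatives were other added constants, centring, quantile normalization, other filters, eBayes settings, array weights, probe set means, 1 fit of 7 arrays and leaving out arrays. After seeing the data, the second brightest probe set and any probe set were added.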

Additional observations from a re-analysis of the deposited data

How the results depend on the processing

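For adult against postnatal day 1 bladder, the 8 collagen genes called became 18 with array weights (17 lower, 1 higher), 14 without adult bladder 2 and postnatal day 1 bladder 3, where spike-ins were strongest, 0 without adult bladders 1 and 3 (0 by limma, with 7 lower and 1 higher at an unadjusted p under 0.05), and 3 to 16 with 1 array left out. The settings that left out arrays had fewer arrays in the fit. All other alternatives gave 6 to 11 collagen genes. Over all genes, the main fit gave 591 lower and 479 higher of 11930 tested, and array weights 1254 and 1351. Without adult bladder 2 and postnatal day 1 bladder 3 these were 762 and 690 of 12230. The median difference of -0.54 became -0.80 without that pair, -0.35 without adult bladders 1 and 3, -0.89 with the second brightest probe sets (chosen after seeing the data), and -0.76 to -0.38 with 1 array left out. For postnatal day 1 bladder against the whole newborn, 8 calls became 4 with the second brightest probe sets. The 13 genes with 1 probe set kept it in that setting, also for the median of -0.89. Col2a1, Col16a1 and Col17a1 are among them, so their calls could not change there. For adult bladder against the whole newborn, 11 calls became 22 with array weights, 18 without that pair, 5 without adult bladders 1 and 3, and 7 to 18 with 1 array left out. Over all genes, this comparison gave 1247 lower and 824 higher of 13504 tested in the main fit, and 2352 and 2243 with array weights. Without adult bladder 2 and postnatal day 1 bladder 3 these were 1851 and 1707 of 13297. Where the number of arrays did not change, the cause was not tested. No called gene changed sign under any alternative.

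No paired analysis was possible because the labels number no replicates across the groups. Without detection calls, genes below the median of every bladder array have no firm level there. Array weights from limma were 0.314 for adult bladder 2 and 0.665 to 4.42 for the other bladder arrays. With the second brightest probe sets Col25a1, Col9a1 and Col4a5 lost their calls against the whole newborn in both comparisons. Col11a1 lost its call in postnatal day 1 bladder, and Col4a6, Col1a1 and Col5a1 lost theirs in adult bladder. Col3a1, Col1a2 and Col5a2 were then called lower in adult bladder.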
